A study of Mus musculus with 6 samples.

Results

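Mouse chromosome 15 was examined by position, gene by gene, in tumours of Y-KO and Y-Scr MB49 cells. The genes were those whose first listed chromosome in the deposited count file was 15 and that had at least 10 counts in each of 3 or more libraries, leaving out symbols that begin with Ly6. This gave 720 of the 57186 genes in the file. The chromosome was picked because an earlier look at the same Y-KO against Y-Scr comparison had drawn attention to it, so its overall shift is described here and not tested. The samples are 6 RNA-seq libraries of MB49 tumours. MB49 is a bladder carcinoma line from a male mouse. One group carried the CRISPR Y-KO genotype (3 libraries) and the other the CRISPR Y-Scr genotype (3 libraries). Both were grown under the skin of C57Bl/6J mice, both were taken at a tumour volume of 500 mm3, and both were labelled as sorted for CD45-negative cells, the fraction meant to lack the common leukocyte antigen. Ptprc, the gene of that antigen, was nevertheless read at 293, 298 and 134 CPM in Y-KO and 521, 577 and 601 CPM in Y-Scr, so the RNA goes against that label in both groups. CPM is the count per library scaled to a common size (TMM). All 6 libraries carry 1 batch label. The labels do not say whether a Y-KO line is 1 clone or whether the libraries came from separate mice, so p-values measure the spread between these libraries only.

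When a cell gains or loses a chromosome, or a piece of one, the RNA of most genes on that stretch usually moves the same way, roughly with the number of copies. Tumour cell lines often carry such changes, and lines derived from 1 parent can differ in them. If every cell of one group had lost 1 of 2 copies, the arithmetic log2 ratio would be -1. It would be -0.58 for 1 of 3 copies and -0.42 for 1 of 4, and nearer 0 if only some of the cells had lost it. Mouse chromosome 15 carries Myc, the apolipoprotein L genes, the cluster of type II keratins and the Hoxc cluster.

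Library totals ran from 42040955 to 52951031 counts. Of the counts between 2 and 20, 80.3% to 82.3% were even in each library, so the depth in read pairs may be lower than the totals. The Y-linked check genes summed to 20.4 to 47.3 CPM in Y-KO and 297 to 344 CPM in Y-Scr. The libraries were not equally distinct. Y-KO replicates 1 and 2 differed by a chi-square of 13.3 per gene against 189 for either with replicate 3, and Y-Scr replicates 2 and 3 by 7.72 against 30.7 and 41.5 with replicate 1. Marker sums of other cells also differed. Pan-leukocyte genes summed to 1384 to 3046 CPM in Y-KO and 3639 to 3773 in Y-Scr, T and NK cell genes to 215 to 381 and 1296 to 1388, and fibroblast genes to 1044 to 2566 and 3097 to 3219. Mast cell and basophil genes summed to 7.29 to 9.37 and 102 to 103 CPM, neutrophil genes to 409 to 737 and 1525 to 1714, and erythroid and platelet genes to 45.8 to 84.8 and 283 to 334. Macrophage and monocyte genes went the other way: 7 of 14 rose and none fell (median log2 ratio 0.69), with sums of 3097, 3084 and 1599 CPM in Y-KO and 1803 to 1952 CPM in Y-Scr. Among all tested genes 7.82% rose and 8.27% fell. Of 12 epithelial markers 8 were tested, of which 4 rose and 1 fell (median of the 8, -0.18). Their sum is 95.5% to 97.4% Krt8 and Krt18, themselves chromosome 15 genes. The 9 not on chromosome 15 summed to 127, 132 and 89.7 CPM in Y-KO and 90.8, 106 and 108 CPM in Y-Scr. In bulk RNA, fewer cells of a type and less RNA per cell cannot be told apart.

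Promoters are printed for 3 of the genes with the largest rise and 3 of those with the largest fall, to show the sequence before genes of 1 chromosome that moved in opposite directions. Each is the 250 bases before the annotated start, from RefSeq on build GRCm38.p6, 5′ to 3′ on the gene's own strand. Capitals mark matches to a searched motif. The motifs were GAAA followed by NN and a second GAAA (an interferon-response form, called the GAAA repeat here), TGACGTCA (a CRE form), CACGTG (an E-box) and TGANTCA (an AP-1 form), each searched on both strands. The positions of Apol10b are chr15:77596126-77596375 (minus strand), of Scn8a chr15:100870395-100870644 (plus strand) and of Sema5a chr15:32244563-32244812 (plus strand). Those of the genes that fell are chr15:101892921-101893170 for Krt76 (minus strand), chr15:77698639-77698888 for Apol7e (plus strand) and chr15:84662956-84663205 for Prr5 (plus strand).
Apol10b: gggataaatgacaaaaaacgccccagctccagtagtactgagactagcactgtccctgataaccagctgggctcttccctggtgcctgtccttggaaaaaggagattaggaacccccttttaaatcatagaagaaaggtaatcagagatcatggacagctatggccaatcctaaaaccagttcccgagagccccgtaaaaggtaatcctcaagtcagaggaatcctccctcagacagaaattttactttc
Scn8a: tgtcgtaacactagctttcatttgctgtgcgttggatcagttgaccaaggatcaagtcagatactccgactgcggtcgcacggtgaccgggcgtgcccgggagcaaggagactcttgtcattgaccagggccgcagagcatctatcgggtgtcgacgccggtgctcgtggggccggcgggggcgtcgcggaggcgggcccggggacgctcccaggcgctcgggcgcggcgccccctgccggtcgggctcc
Sema5a: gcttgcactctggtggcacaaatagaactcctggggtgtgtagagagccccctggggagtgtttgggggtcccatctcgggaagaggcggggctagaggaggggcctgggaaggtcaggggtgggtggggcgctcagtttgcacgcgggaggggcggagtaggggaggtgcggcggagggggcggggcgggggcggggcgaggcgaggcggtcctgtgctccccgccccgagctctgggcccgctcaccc
Krt76: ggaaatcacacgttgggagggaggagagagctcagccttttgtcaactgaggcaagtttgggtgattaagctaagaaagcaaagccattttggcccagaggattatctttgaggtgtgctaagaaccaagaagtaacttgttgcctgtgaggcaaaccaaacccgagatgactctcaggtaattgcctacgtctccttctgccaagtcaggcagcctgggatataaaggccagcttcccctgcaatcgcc
Apol7e: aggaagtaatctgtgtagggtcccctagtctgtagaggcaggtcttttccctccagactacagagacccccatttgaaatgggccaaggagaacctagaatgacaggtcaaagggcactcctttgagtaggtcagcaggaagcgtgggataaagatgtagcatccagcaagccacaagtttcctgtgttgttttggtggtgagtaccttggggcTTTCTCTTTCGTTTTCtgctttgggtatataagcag
Prr5: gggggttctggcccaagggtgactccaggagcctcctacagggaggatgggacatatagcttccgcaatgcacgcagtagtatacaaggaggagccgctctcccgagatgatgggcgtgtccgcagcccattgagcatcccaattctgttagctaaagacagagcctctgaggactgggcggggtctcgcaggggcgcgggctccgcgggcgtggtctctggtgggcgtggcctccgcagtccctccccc

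Only the Apol7e promoter held a match, with 2 overlapping copies of the GAAA repeat on the minus strand. Over all 27025 promoters of the same length, 3.04% held the GAAA repeat, 1.62% TGACGTCA, 6.05% CACGTG and 6.87% TGANTCA. Of the 328 promoters matched to chromosome 15 members, 3.05%, 2.13%, 7.93% and 2.74% did. A match is a run of letters and not a shown site. The coordinates belong to the older build; the counts were made on GRCm39.

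The genes of chromosome 15 sat slightly lower in Y-KO than those of the other autosomes. The median log2 ratio of Y-KO over Y-Scr (mean log2 CPM of one group minus that of the other) was -0.16 over the 720 genes and -0.04 over 16700 genes of the other 18 autosomes passing the same count rule, a difference of -0.11. Chromosome 15 had the lowest median of all 19 autosomes. Chromosome 6 was next at -0.13, and chromosome 19 was highest at 0.13. Of the chromosome 15 genes, 64.4% were below 0, against 53.8% elsewhere. In the single libraries, the median of chromosome 15 minus that of the other autosomes was -0.099, -0.099 and -0.092 in Y-KO replicates 1 to 3, a mean of -0.097 (SD 0.0040, n = 3). In Y-Scr the values were 0.015, -0.0038 and -0.0088. Each Y-KO library was lower than each Y-Scr library, and the 3 values were close to each other. Before that subtraction the Y-KO libraries were at -0.119, -0.123 and -0.100 for chromosome 15 and at -0.105, -0.124 and -0.087 for chromosome 6. The shift is smaller than the spread between genes, since the middle of the chromosome 15 genes ran from -0.52 (lower quartile) to 0.14 (upper quartile).

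**Figure D1:**
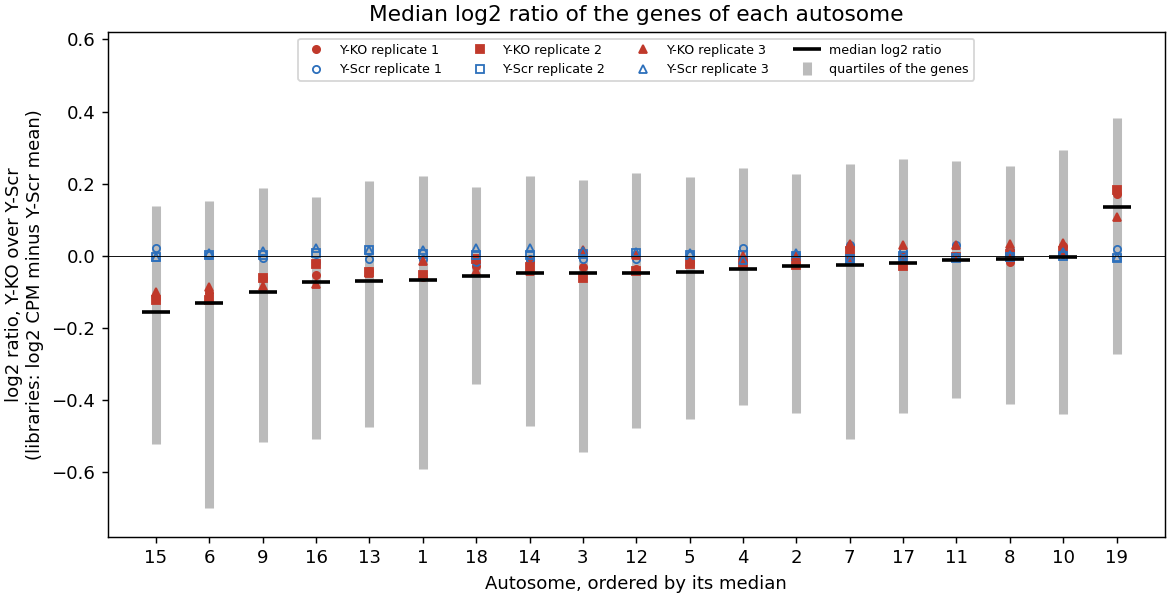
Median log2 ratio of Y-KO over Y-Scr for the genes of each of the 19 autosomes (black bars), with the quartiles of the genes (grey) and the median of each library against the Y-Scr mean (red Y-KO, blue Y-Scr). Chromosome 15 has the lowest median, -0.16, with all 3 Y-KO libraries below the Y-Scr libraries, and the quartiles of every chromosome overlap.

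The shift was clearest in the middle and upper parts of the distribution. Chromosome 15 minus the other autosomes was 0.00 at the lowest decile, -0.05 at the lower quartile, -0.11 at the median, -0.10 at the upper quartile and -0.08 at the highest decile. The mean over genes differed by only -0.05. The summed CPM of the members was 56207 in Y-KO and 56026 in Y-Scr. The genes of the other autosomes summed to 899130 and 839410 CPM, a larger rise than that of the members. By level of expression, the difference was 0.03 for the 162 genes under 1 CPM, -0.03 for 91 genes from 1 to 4 CPM, -0.08 for 93 genes from 4 to 16, -0.19 for 171 genes from 16 to 64 and -0.13 for 203 genes of 64 and over. Between 16 and 64 CPM, 69.0% of the members were below 0 against 45.6% of the other autosomes' genes. At a mean of at least 16 CPM (a level chosen after seeing the data), 374 members had a median of -0.08 against 0.06 for 8025 others, and 61.0% against 42.04% were below 0. At that level chromosome 15 was the only autosome with a median below 0. The next lowest was chromosome 14 at 0.0044, and chromosome 6 was at 0.011.

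**Figure D2:**
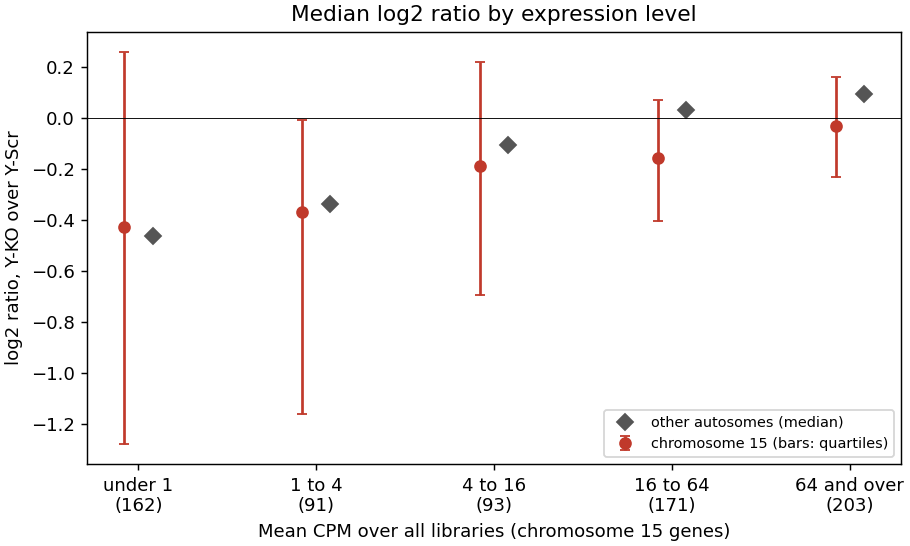
Median log2 ratio of chromosome 15 genes (red, with quartiles) and of the genes of the other autosomes (grey diamonds) in 5 ranges of mean CPM, with the number of chromosome 15 genes below. The red points lie below the grey ones from 1 CPM up, and the difference at 16 to 64 CPM is -0.19.

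Along the chromosome, 20 windows of 5 Mb by gene start held members, and 10 held at least 20. All 10 fuller windows had a median below the -0.04 of the other autosomes, and 17 of the 20 were below 0. Elsewhere, 49.7% of 308 windows with at least 20 genes were below -0.04. Window medians ran from -0.38 at 70 to 75 Mb to -0.05 at 5 to 10 Mb. Between them came 95 to 100 Mb (79 genes, -0.24), 75 to 80 Mb (160 genes, -0.18), 35 to 40 Mb (40 genes, -0.18), 55 to 60 Mb (35 genes, -0.17) and 30 to 35 Mb (26 genes, -0.16). Windows at 100 to 105 Mb (78 genes, -0.15), 80 to 85 Mb (87 genes, -0.09) and 85 to 90 Mb (47 genes, -0.08) were closer to 0. The interquartile range of the window medians was 0.08 on chromosome 15 and 0.14 over the other windows. The 10 thin windows, with 113 genes in all, held the only positive medians: 0.12 at 20 to 25 Mb, 0.14 at 60 to 65 Mb and 0.02 at 90 to 95 Mb.

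**Figure D3:**
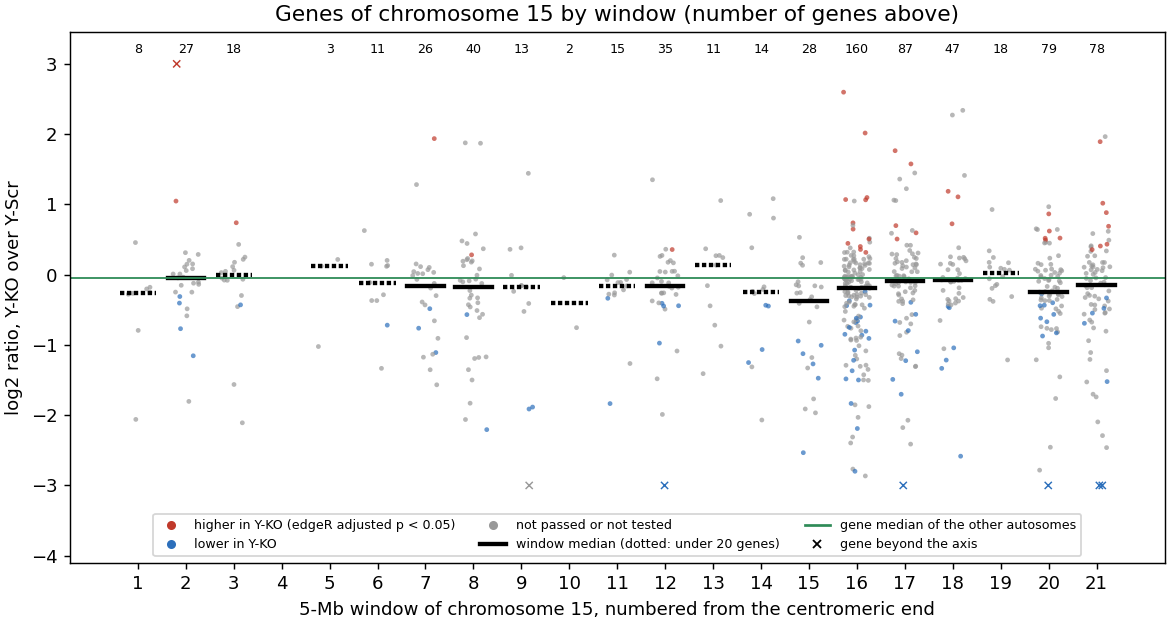
Log2 ratio of Y-KO over Y-Scr of each chromosome 15 gene in its 5-Mb window, window 1 holding the first 5 Mb, with window medians as black bars (dotted under 20 genes) and the number of genes above. Genes called higher (red) and lower (blue) sit side by side in most of the fuller windows, while the medians vary little, and window 15 (70 to 75 Mb) is lowest at -0.38.

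In 9 of the 10 fuller windows, all 3 Y-KO library medians lay below all 3 Y-Scr medians; 21.4% of the 308 other windows did so. The exception was 5 to 10 Mb, where Y-KO was at -0.01, -0.06 and -0.23 and Y-Scr at -0.07, 0.02 and 0.06. The lowest window, 70 to 75 Mb, was at -0.40, -0.55 and -0.26 in Y-KO and 0.04, 0.00 and 0.01 in Y-Scr. Of the other autosomes' windows, 5 of 308 (1.62%) had a lower median. That share is a rank and not a test, since the window is the lowest of 10 on a chromosome picked from this contrast. The window holds 28 members, 23 of them below 0. The 15 with a mean of at least 4 CPM had a median of -0.26 (12 below 0), and the 13 weaker ones -0.67.

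**Figure D4:**
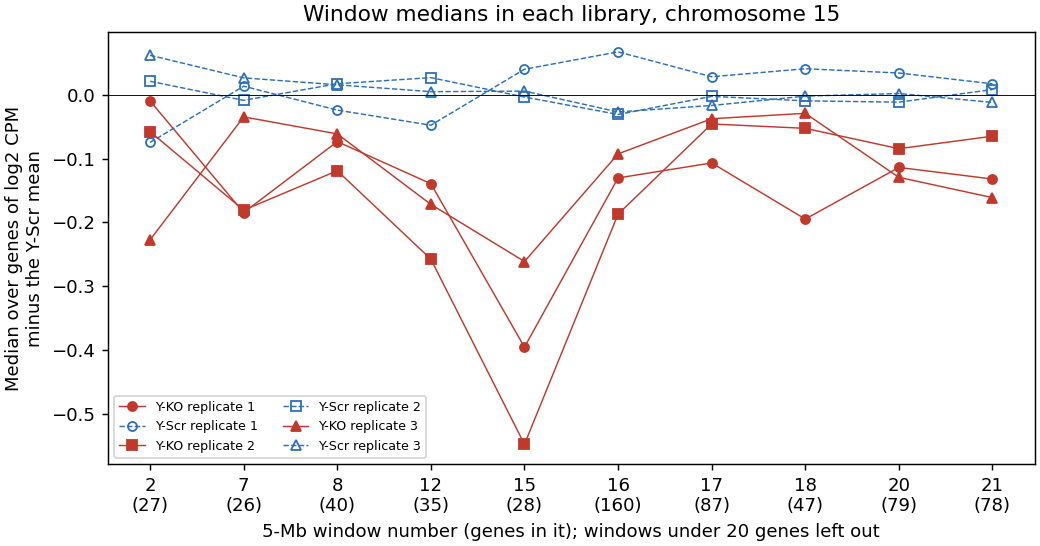
Median log2 CPM relative to the Y-Scr mean over the genes of each fuller window, 1 line per library. The Y-KO lines (red) stay below the Y-Scr lines (blue) in 9 of 10 windows and dip to -0.55 to -0.26 in window 15, and they overlap in window 2.

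A single boundary did not separate a shifted segment from an unshifted one. Over boundaries with at least 50 genes on either side, the largest difference of medians was -0.09, at 25 Mb, with 56 genes at -0.07 to the left and 664 at -0.16 to the right. Among the 19 autosomes this ranked 17th in size, and the largest, -0.38, was on chromosome 6. By library the step was -0.09, -0.03 and 0.11 in Y-KO and 0.09, -0.03 and -0.06 in Y-Scr, so neither group had a shared sign. Differences between windows made up 2.62% of the variance of the gene ratios, against 2.01% to 16.5% on the other autosomes. Centring the genes on the chromosome's own median lowered their mean absolute deviation by 1.80%, more than on any other autosome except chromosome 19 (4.27%), and a step added 0.14%. Both changes are small beside the deviation that remained. The place and sign of the step were not stable. At a mean of at least 4 CPM it was 0.09, at 75 Mb. It was 0.08, 0.11 and 0.08, at 80 Mb, when Y-KO replicate 1, Y-KO replicate 3 or Y-Scr replicate 1 was left out.

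The test of single genes was edgeR's quasi-likelihood test with Benjamini-Hochberg adjustment over all 17837 tested genes, of which 16.1% passed. Of the 712 members tested, 38 rose in Y-KO and 83 fell. Over all tested genes 7.82% rose and 8.27% fell, and over those of the other autosomes 7.95% and 8.05%. Among the members it was 5.34% and 11.7%. Because the chromosome was chosen from this contrast, nothing is read from these shares. The groups did not overlap for 278 members (39.0%), against 37.7% of all tested genes. Among these calls, 14 rises and 34 falls had a fold over 2. The share of all tested genes with such a call was not counted, so nothing is read from these numbers. Called or not, 15.1% of the members and 13.4% of the other autosomes' genes had a log2 ratio below -1. Those above 1 were 4.31% and 3.19%. The 83 falls and 38 rises became 183 and 92 when Y-KO replicate 3 was left out. Without that library, 25.5% of the members fell and 12.8% rose, against 17.7% and 15.98% of all tested genes. Leaving out another Y-KO library gave 48 and 24 (replicate 1) or 51 and 25 (replicate 2). For replicate 1 that was 6.69% and 3.35% of the members, against 5.35% and 3.86% of all tested genes. For replicate 2 it was 7.09% and 3.48%, against 5.62% and 3.90%. Leaving out a Y-Scr library gave 40 and 33 (replicate 1), 30 and 14 (replicate 2) or 28 and 15 (replicate 3). In that order, the members' falls were 5.56%, 4.19% and 3.91%, against 4.06%, 3.10% and 3.01% of all tested genes. Their rises were 4.59%, 1.96% and 2.09%, against 5.20%, 2.45% and 2.56%. Summing the close pairs, so that each group counts as a pair of libraries, left 14 and 4. That was 1.95% and 0.56% of the members, close to the 1.85% and 0.70% of all tested genes. Of the 49 calls of genes named by rule below, 33 then ended (adjusted p = 0.0591 to 0.414). The 16 that held were Il2rb, Mfng, Grap2, Igfbp6, Pdgfb, Ccn4, Krt76, Celsr1, Tef, Apol7e, Ptp4a3, Slc39a4, Cacna1i, Adm2, Endou and Ncald.

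Genes with interferon and cell death roles moved in both directions. Of 25 members, 5 rose and 5 fell (median log2 ratio -0.11). Of all tested genes, 7.82% rose and 8.27% fell. The counts of this and the following lists are descriptions beside those shares. Apolipoprotein L genes, whose mouse Apol9 members are interferon-inducible, lie together in the window from 75 to 80 Mb. Apol6 was at 13.6, 12.5 and 4.13 CPM in Y-KO and 1.75, 1.30 and 1.29 CPM in Y-Scr. Every Y-KO library was above the Y-Scr libraries, though replicate 3 was lower than the other two. Apol6 rose 6.93-fold (edgeR log2 fold change 2.79, SE 0.43, adjusted p = 0.00408). Apol10b read 10.8, 8.30 and 4.18 CPM against 1.86, 1.88 and 1.53, a log2 rise of 2.14 (SE 0.35, adjusted p = 0.00509). Apol9b, at 47.2 against 22.6 CPM on average, and Apol9a, at 45.2 against 21.3 CPM, rose by 1.06 and 1.08 (adjusted p = 0.00241 and 0.00542). Between them, Apol7e was 2.00, 1.71 and 1.16 CPM in Y-KO and 5.68, 5.52 and 6.08 CPM in Y-Scr, with no overlap, and fell 3.54-fold (adjusted p = 0.00301). Apol9a is not a gene that the naming rule chose, and was added after its values were seen. With the close pairs summed, the rises of Apol6, Apol10b, Apol9b and Apol9a did not pass (adjusted p = 0.0835, 0.0826, 0.0647 and 0.106), and the fall of Apol7e did (0.0468). Members of this family resemble each other, so their counts are uncertain.

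Leukocyte genes were mostly lower. Of 23 members 8 fell and 1 rose (8.27% and 7.82% of all tested genes did), and the median was -0.66. Il2rb, the beta chain of the interleukin-2 and interleukin-15 receptors, was at 102, 107 and 66.4 CPM in Y-KO and at 411, 406 and 413 CPM in Y-Scr. No library overlapped, and it fell 4.47-fold (log2 fold change -2.16, SE 0.17, adjusted p = 0.000162). Grap2, an adaptor of T cell receptor signalling, was at 11.8, 13.4 and 7.65 against 28.3, 29.9 and 31.9 CPM and fell 2.74-fold (adjusted p = 0.00225). Mfng, a glycosyltransferase that modifies Notch, was at 48.5 ± 4.75 against 84.6 ± 5.02 CPM (SD, n = 3 each) and fell 1.74-fold (adjusted p = 0.00164). Itgb7, the integrin beta 7 chain of gut-homing lymphocytes, went the other way, at 847, 852 and 798 against 557, 500 and 494 CPM, and rose 1.61-fold (adjusted p = 0.000788). The rise of Itgb7 did not pass with the close pairs summed (adjusted p = 0.0624). Ptprc and the sums of pan-leukocyte and T and NK cell markers were lower in all Y-KO libraries (above), and their part in these values was not tested.

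Stromal and matrix genes were split. Of 27 members, 4 rose and 5 fell (median -0.11), where 7.82% and 8.27% of all tested genes did. Igfbp6, which binds insulin-like growth factors, was at 209, 221 and 220 CPM in Y-KO and 122, 100 and 99.8 CPM in Y-Scr, and rose 2.01-fold (adjusted p = 0.000509). Sema5a, a semaphorin of axon and vessel guidance, rose 3.46-fold at low level, from 1.40 to 4.88 CPM (adjusted p = 0.0231). Pdgfb, a platelet-derived growth factor, was at 8.95, 10.5 and 10.8 against 26.7, 23.2 and 28.3 CPM and fell 2.59-fold (adjusted p = 0.000551). Ccn4, a matricellular protein, was at 29.96, 23.8 and 27.9 against 55.9, 64.4 and 74.8 CPM and fell 2.39-fold (adjusted p = 0.000788). The groups did not overlap for any of these genes. The fibroblast marker sum was lower in all Y-KO libraries, and its part was not tested. The call of Sema5a ended when Y-KO replicate 1 or 2, or Y-Scr replicate 2 or 3, was left out (0.0559 to 0.101).

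Keratins and epithelial genes also differed among neighbours. Of 20 members 2 rose and 3 fell (median 0.02), where 7.82% and 8.27% of all tested genes did. Krt8 and Krt18, the paired filament keratins of simple epithelia, lie next to each other in the window from 100 to 105 Mb. Krt18 was at 1236, 1266 and 1249 CPM in Y-KO and 1007, 886 and 890 in Y-Scr and rose 1.35-fold (adjusted p = 0.0054). Krt8 was at 1914, 1925 and 2131 against 1641, 1451 and 1414 CPM and rose 1.32-fold (adjusted p = 0.0106). Krt76, a type II keratin of stratified epithelium in the same cluster, was at 0.186, 0.181 and 0.590 CPM against 7.38, 7.36 and 6.28 CPM. No library overlapped and it fell 21.9-fold (log2 fold change -4.46, SE 0.45, adjusted p = 0.000555). Celsr1, a planar polarity cadherin, fell 2.54-fold (4.66 against 11.8 CPM, adjusted p = 0.00167). Leaving out Y-Scr replicate 2 or 3 ended the call of Krt8 (edgeR adjusted p of 0.0735 and 0.0736). With the close pairs summed neither Krt8 nor Krt18 passed (adjusted p = 0.174 and 0.164). Among epithelial markers elsewhere in the genome, Krt14 (51.3 against 14.4 CPM, adjusted p = 0.000329) and Krt19 (13.7 against 1.93 CPM, 0.00276) rose and Epcam (1.04 against 3.66 CPM, 0.00586) fell. Cdh1 was at 48.2 against 76.6 CPM and did not pass (0.142). All 10 genes listed for the Hoxc cluster, Hotair among them, missed the count rule.

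Transcription and chromatin genes gave 2 rises and 2 falls among 26 members, with 20 below 0 (median -0.17). These counts are near the shares of all tested genes, of which 7.82% rose and 8.27% fell. Tef, a circadian PAR bZIP transcription factor, was at 141, 133 and 191 CPM in Y-KO and 43.4, 46.2 and 45.3 CPM in Y-Scr. All Y-KO libraries lay well above, and it rose 3.44-fold (log2 fold change 1.78, SE 0.14, adjusted p = 0.000168). Atf4, the factor of the integrated stress response, rose 1.43-fold (452 against 316 CPM, adjusted p = 0.0136). Cbx7, a Polycomb subunit, fell 1.67-fold (50.6 against 84.4 CPM, adjusted p = 0.00594), and Tcf20, a transcriptional coregulator, 1.31-fold (adjusted p = 0.0278). The call of Atf4 ended when Y-KO replicate 1 or 2, or Y-Scr replicate 2 or 3, was left out (0.0511 to 0.0692), and that of Tcf20 when Y-KO replicate 1 or any Y-Scr library was (0.0906 to 0.135). With the close pairs summed Cbx7 did not pass (adjusted p = 0.113).

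**Figure D5:**
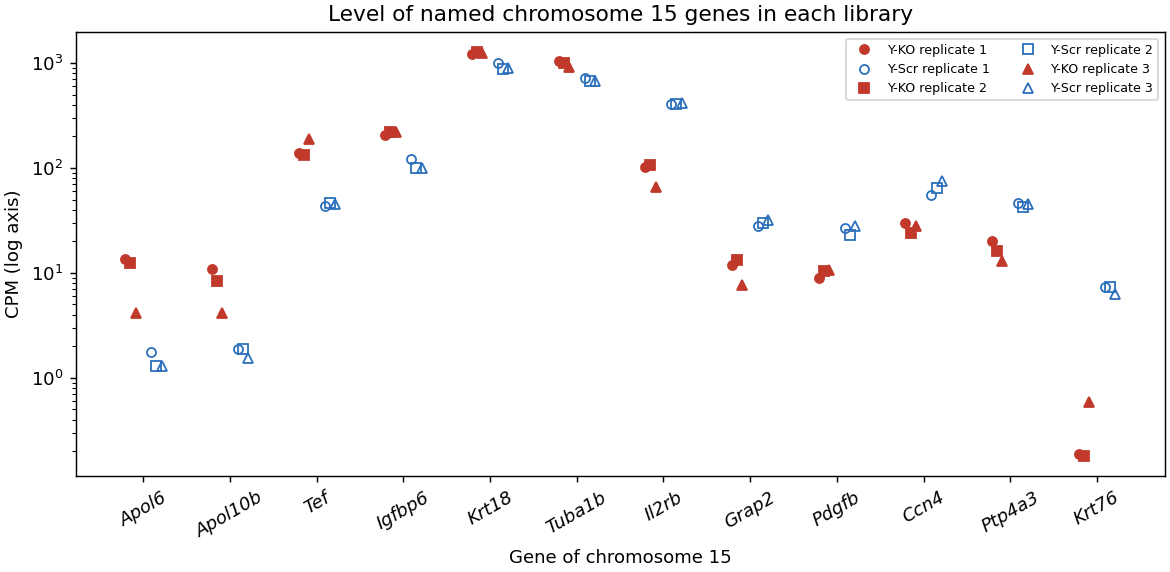
CPM of 12 named chromosome 15 genes in each library (log axis; red Y-KO, blue Y-Scr, 1 point per library). The first 6 genes are higher in all Y-KO libraries and the last 6 lower, and Apol6, Krt76 and Apol10b vary most within Y-KO on this axis.

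Signalling, adhesion and transport genes mostly fell where they passed: 10 of 41 members against 1 that rose (median -0.16). Of all tested genes, 8.27% fell and 7.82% rose. Ptp4a3, a phosphatase linked to cell migration, was at 20.01, 16.2 and 13.0 CPM in Y-KO and 46.9, 42.3 and 45.5 CPM in Y-Scr and fell 2.74-fold (adjusted p = 0.000793). Slc39a4, a zinc importer, was at 4.29, 3.50 and 3.63 against 9.43, 10.6 and 12.6 CPM and fell 2.85-fold (adjusted p = 0.00161). Myo10, a motor of filopodia, fell 1.65-fold (66.7 against 110.02 CPM, adjusted p = 0.00181) and Grina, a glutamate-receptor-associated membrane protein, 1.36-fold (328 against 446 CPM, adjusted p = 0.00573). The values did not overlap between groups for any of these genes. With the close pairs summed Myo10 and Grina did not pass (adjusted p = 0.0675 and 0.131). Ptp4a3 lies in the lowest window, at 70 to 75 Mb. There 6 of 28 genes fell and none rose, where 8.27% of all tested genes fell and 7.82% rose. The window was singled out for its low median, so nothing is read from this count. The genes that fell were Ptp4a3, Lypd2, Lynx1, Dennd3, Peg13 and Gm39556. Besides Ptp4a3 and Lypd2 these were picked out after their values were seen. Dennd3 was at 25.2, 19.2 and 14.9 against 38.05, 41.2 and 37.4 CPM (adjusted p = 0.00883), and Lynx1 at 59.2, 61.7 and 109 against 148, 140 and 136 CPM (adjusted p = 0.0252). The call of Dennd3 ended when Y-Scr replicate 2 was left out (0.0517) and with the close pairs summed (0.0759). That of Lynx1 ended when any library other than Y-KO replicate 3 was left out (0.078 to 0.105) and with the pairs summed (0.208). Between these genes lie Them6 (191 against 174 CPM), Ago2 (135 against 163 CPM) and Ptk2 (117 against 104 CPM), which did not pass (adjusted p = 0.46, 0.214 and 0.228).

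Lists of translation, metabolism and the cell cycle had medians near 0. Translation and RNA binding gave 4 rises and 2 falls among 28 members (median 0.04). Mitochondria and metabolism gave 2 and 4 of 35 (median -0.05), and Myc, cell cycle and DNA repair 3 and 5 of 33 (median 0.08). Rises and falls were 7.82% and 8.27% of all tested genes. The tubulins Tuba1b and Tuba1c are close neighbours in the window from 95 to 100 Mb. Tuba1b was at 1039, 1014 and 915 CPM against 719, 677 and 674 and rose 1.43-fold (adjusted p = 0.00266), and Tuba1c at 311, 320 and 254 against 209.98, 201 and 203 CPM rose 1.44-fold (adjusted p = 0.00983). Tuba1a, another tubulin nearby and picked out after its value was seen, was at 235 against 231 CPM (adjusted p = 0.886). Ddx17, an RNA helicase, fell 1.54-fold (288 against 443 CPM, adjusted p = 0.00182), while Hnrnpa1, a splicing regulator, rose 1.28-fold (797 against 622 CPM, adjusted p = 0.00919) and Eif3d, an initiation factor subunit, 1.32-fold (207 against 157 CPM, adjusted p = 0.00944). Dgat1, the last enzyme of triglyceride synthesis, fell 1.86-fold (41.1 against 76.3 CPM, adjusted p = 0.00376). Leaving out Y-Scr replicate 2 or 3 ended the calls of Tuba1c, Hnrnpa1 and Eif3d (edgeR adjusted p of 0.0542 to 0.0703). With the close pairs summed Tuba1b, Ddx17 and Dgat1 did not pass (adjusted p = 0.123, 0.0736 and 0.0606). Myc, looked at for its place on the chromosome and after its value was seen, was at 167 against 139 CPM (log2 fold change 0.27, adjusted p = 0.0509).

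Some calls in these lists ended when a library was left out. Tars, a threonyl-tRNA synthetase, rose 1.70-fold (166 against 97.3 CPM, adjusted p = 0.0154) but read 182, 195 and 121 CPM over Y-KO replicates 1 to 3. Trib1, a pseudokinase, rose 1.28-fold (adjusted p = 0.0264) and Ccnt1, cyclin T1, fell 1.36-fold (adjusted p = 0.0205). Cyb5r3, a reductase, fell 1.47-fold (adjusted p = 0.00797), Pmm1, phosphomannomutase, rose 1.52-fold (adjusted p = 0.0118) and Naprt, of NAD synthesis, fell 2.01-fold (adjusted p = 0.0351). The calls of Tars, Trib1 and Naprt ended when any library other than Y-KO replicate 3 was left out (adjusted p = 0.0512 to 0.126). Ccnt1 was lost without Y-KO replicate 1 or 2 or Y-Scr replicate 2 or 3 (0.0694 to 0.125), Pmm1 without Y-Scr replicate 2 or 3 (0.0576 and 0.070) and Cyb5r3 without Y-Scr replicate 3 (0.0543).

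Other genes with a large fold stood across the chromosome. Scn8a, a voltage-gated sodium channel, was at 2.56, 2.80 and 2.93 CPM in Y-KO and 0.585, 0.673 and 0.916 CPM in Y-Scr and rose 3.80-fold (adjusted p = 0.00646). Cacna1i, a T-type calcium channel, rose 3.10-fold (5.70 against 1.84 CPM, adjusted p = 0.0079) and Adm2, an adrenomedullin-family peptide, 2.26-fold (33.8 against 14.9 CPM, adjusted p = 0.00168). With the close pairs summed Scn8a did not pass (adjusted p = 0.0591). Dab2, an endocytic adaptor, rose 2.21-fold but was 216, 214 and 93.4 CPM in Y-KO against 74.8, 77.4 and 84.6 CPM (adjusted p = 0.0251). The falls were Endou, an endoribonuclease, at 0.248, 0.00 and 0.182 against 2.63, 2.02 and 1.70 CPM (adjusted p = 0.0154), and Ncald, a neuronal calcium sensor, at 0.680 against 3.16 CPM (adjusted p = 0.0103). Lypd2, of the Ly6/uPAR family, was at 3.01, 1.60 and 8.58 against 23.9, 19.6 and 17.8 CPM (adjusted p = 0.0211). Enpp2, autotaxin, was at 115, 103 and 355 against 563, 595 and 573 CPM (adjusted p = 0.0348), and Prr5, a subunit of mTOR complex 2, at 0.867 against 2.60 CPM (adjusted p = 0.0488). In Dab2, Lypd2 and Enpp2, Y-KO replicate 3 lay nearer Y-Scr than the others. That library also stood apart in marker sums, with fibroblast genes at 2566 CPM against 1044 and 1060, and macrophage genes at 1599 CPM against 3097 and 3084, in the other Y-KO libraries. In Y-Scr those sums were 3097 to 3219 and 1803 to 1952 CPM. Their part in these values was not tested. Without a library the call was lost for Dab2 and Enpp2 (any but Y-KO replicate 3; 0.0808 to 0.121), Lypd2 (Y-KO replicate 1 or any Y-Scr replicate; 0.0744 to 0.0887), Endou (any Y-Scr replicate; 0.0642 to 0.0803), Ncald (Y-Scr replicate 1 or 3; 0.0522 and 0.0663) and Prr5 (Y-KO replicate 2 or any Y-Scr replicate; 0.0806 to 0.166).

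The 8 genes named as most abundant were Pabpc1, Lgals1, Myh9, Rpl3, Rpl8 and Eif4b, with Krt8 and Krt18 above. Their folds were at most 1.35. The other genes given here were named as the most abundant of their windows. Pabpc1, the poly-A binding protein, rose 1.22-fold (2310 against 1898 CPM, adjusted p = 0.0211), Lgals1, galectin-1, rose 1.28-fold (2108 against 1648 CPM, adjusted p = 0.0464) and Myh9, non-muscle myosin heavy chain, fell 1.18-fold (1203 against 1421 CPM, adjusted p = 0.0403). Arf3, a small GTPase, fell 1.21-fold (285 against 345 CPM, adjusted p = 0.0473). Rpl3 (2309 against 2425 CPM), Rpl8 (2046 against 1865 CPM), Rpl37 (573 against 572 CPM) and Eif4b (880 against 904 CPM) did not pass. Neither did Tmbim6 (769 against 728 CPM), Plxnb2 (441 against 420 CPM), Arsa (451 against 379 CPM), Ncaph2 (238 against 247 CPM), Tspo (479 against 488 CPM), Srebf2 (456 against 439 CPM) or Fyb (85.9 against 87.7 CPM). Pabpc1 and Lgals1 were lost without Y-KO replicate 1 or 2 or Y-Scr replicate 2 or 3 (adjusted p = 0.086 to 0.177), and Myh9 and Arf3 without any library but Y-KO replicate 3 (0.0657 to 0.213).

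Of the 720 members, 539 (74.9%) are annotated as protein coding, 169 have no name or a gene-model name and 64 are pseudogenes. The role lists hold 258 members, with a median log2 ratio of -0.07, and the 462 in no list have -0.22. Of the 63 genes named by rule, 23 share exon bases with another gene, among them Apol6 with Mb, Cbx7 with Apobec3 and Ddx17 with Kdelr3, each on the other strand. The counts did not use strand and left out reads fitting several genes or places, so the values of such genes are uncertain. The 8 members not tested fell under the filter of the test. They are Mucl1 and 7 gene models. At the edge of the count rule, 44 members reached 10 counts in exactly 3 libraries (median -0.85, 9 in Y-Scr only and 3 in Y-KO only), and 58 genes just outside reached it in 2 (median -0.53). The 591 members that reached it in all 6 libraries had a median of -0.11.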

How the data were processed

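Bulk RNA-seq of 6 libraries was used. The deposited table holds raw counts of reads for each gene. Per the file headers, the authors ran featureCounts 1.5.3 on the GRCm39 annotation of Ensembl (release 112), naming no strand or read-pair option. The submitters' processing notes list STAR 2.5.2b, Trimmomatic 0.39, FastQC 0.12.1 and MultiQC 1.13. Symbols and gene types came from an older annotation (GENCODE, GRCm38) by gene ID, and 691 members had a symbol. Gene positions are those of the deposited file.

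The members, windows, gene lists and tests were chosen with earlier results of these data known. The test was edgeR's quasi-likelihood test (edgeR 4.0.16, R 4.3.3) on the whole table, with filterByExpr (minimum count 10, minimum total 15), TMM and group alone in the model, and a Benjamini-Hochberg adjusted p under 0.05 was a call. Log2 ratios used log2 CPM with prior count 2. Named genes were the 4 smallest p of each role list, the 8 largest folds in each direction (at least 2 CPM, no overlap), the 8 most abundant, and the 3 most abundant in the 3 highest and 3 lowest windows. Replicate numbers were not used as pairs. In the check for pairing between the groups, r was -0.0084, 0.0049 and -0.014 for same numbers and -0.011 to 0.017 for different numbers. This r does not measure the likeness of whole libraries. Alternatives were limma 3.58.1 (voom), DESeq2 1.42.0, other scalings, filters and leaving out each library. The script was tested on simulated counts.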

Additional observations from a re-analysis of the deposited data

How the results depend on the processing

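The members higher in Y-KO numbered 14 to 92, and those lower 28 to 183, over leaving out each library. They were 4 and 14 with the close pairs summed, and 8 and 16 when tested against a fold of 1.5. With the pairs summed, 0.56% of the members rose and 1.95% fell, against 0.70% and 1.85% of all tested genes. For the fold of 1.5 it was 1.12% and 2.25%, against 0.99% and 2.75%. DESeq2 gave 44 members higher and 97 lower (6.11% and 13.5%, against 5.64% and 6.55% of all tested genes). With voom it was 43 and 96 (6.04% and 13.5%, against 8.55% and 9.83%). The named calls of Enpp2, Myh9 and Arf3 did not pass the Wald test of DESeq2 (adjusted p = 0.0592, 0.0943 and 0.0582). With library size alone as scaling, 136 members were lower, the median log2 fold change of all tested genes was -0.17 in place of -0.03, 730 genes of the whole table were higher and 2255 lower in place of 1395 and 1476, and the highest window was -0.18. The difference of chromosome 15 from the other autosomes was -0.107 to -0.098 over leaving out each library. It was -0.074 with no filter, -0.13 at a mean of at least 4 CPM, -0.14 at 16 CPM, -0.10 with prior count 10, -0.046 as a mean over genes, -0.10 without genes of cell type lists and -0.11 without gene models and pseudogenes. The step ran from -0.081 to 0.115 over leaving out each library, and was 0.092 at 4 CPM (at 75 Mb), 0.10 at 16 CPM and 0.072 with pairs summed (at 80 Mb). The lowest window was -0.16 at 4 CPM, -0.086 at 16 CPM, where fewer windows held 20 genes, and -0.21 in windows of 10 Mb. Some genes that did not pass changed sign. With library size alone these were Rpl8 (-0.0091), Them6 (-0.0072), Tmbim6 (-0.064), Rpl37 (-0.14), Plxnb2 (-0.072) and Srebf2 (-0.090). Rpl37 was -0.0045 with no filter and -0.036 at 4 CPM. With pairs summed, Eif4b was 0.0036, Rpl37 -0.015 and Srebf2 -0.0058. Over leaving out each library, Rpl3 ran from -0.15 to 0.028, Rpl37 from -0.089 to 0.18, Ncaph2 from -0.087 to 0.020, Tspo from -0.077 to 0.084, Srebf2 from -0.035 to 0.17 and Fyb from -0.13 to 0.11. With the replicate number as a block, 35 members were higher and 60 lower (4.92% and 8.43%, against 5.30% and 6.28% of all tested genes). The numbers do not pair the libraries. Of 49 named calls, 26 held with each library left out, 43 with the block and 16 with pairs summed. Where not stated, the cause was not tested.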

Other observations

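The 8 genes with a symbol beginning Ly6 that the rule left out lie at 74 to 76 Mb and passed the count rule. Ly6d (4.16 against 21.0 CPM), Ly6f (2.03 against 16.04 CPM), Ly6g (1.09 against 2.95 CPM) and Ly6c1 (275 against 430.1 CPM) fell, and Ly6i (8.22 against 2.42 CPM) rose (edgeR adjusted p = 6.05e-05, 4.18e-05, 0.037, 0.0179 and 0.0301). Ly6c2 (59.0 against 104 CPM), Ly6e (1403 against 1381 CPM) and Ly6a (429 against 413 CPM) did not pass. The calls of Ly6d and Ly6f held when any library was left out and with the close pairs summed (adjusted p of at most 0.0047). Those of Ly6g, Ly6c1 and Ly6i did not pass with the pairs summed (0.136, 0.181 and 0.226). Ly6c1 and Ly6i also did not pass when any library other than Y-KO replicate 3 was left out (0.0583 to 0.129), nor Ly6g without Y-KO replicate 2 or any Y-Scr library (0.0829 to 0.165).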
